A study of Mus musculus with 14 samples.

Results

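The comparison described here sets a mouse embryonic stem cell line that had been reverted from epiblast stem cells, and was then kept without the inhibitor used to revert it, against blastocyst-derived embryonic stem cells (ESC). It takes 4 of the 14 RNA-seq libraries of the series, chosen by their labels: 2 of the group rES passage 30 without MM401 and 2 of the group ESC. Epiblast stem cells (EpiSC) are pluripotent cells in a primed state, and MM401 is a peptidomimetic that blocks the contact of the histone H3K4 methyltransferase MLL1 (Kmt2a) with its partner WDR5. In the study EpiSC were treated with MM401 at 100 µM in LIF medium, and reverted lines (rES) were then maintained with MM401 at 25 µM. The inhibitor-free line carries the genotype label CD1-deltaTSIX/JF1 and grew in Knockout DMEM with serum replacement and LIF. The ESC carry the label CD1/JF1 and grew in GMEM with serum replacement, LIF and feeder cells. The sources used here do not give how long the line had been without MM401, whether it came from 1 clone, or whether it was grown on feeders. Neither culture was kept in MM401, and cell line, genotype, basal medium, feeder cells and history of reversion differ together and cannot be told apart in any result below. The rES passage 30 group, same label and medium but with MM401, and the EpiSC group, 2 libraries each, are given beside the comparison where they help to place a value. Genotype, medium and feeder cells of the EpiSC group are not reported here. The rES passage 6 group, with MM401 at 25 µM, is used only for the X chromosome.

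Pluripotent mouse cells occupy a naive state, as in the inner cell mass and in ESC held by LIF through STAT3 and the KLF factors, or a primed state, as in the later epiblast and in EpiSC, which rely on FGF and activin. Naive cells express Klf4, Tfcp2l1, Esrrb, Prdm14 and Zfp42. Leaving that state brings up Fgf5, Otx2 and the de novo DNA methyltransferases, while ESC cultures also give off cells of the primitive endoderm, marked by Gata4, Gata6, Sox17 and basement membrane genes.

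The 4 libraries held 21831860 and 21119722 counts in the inhibitor-free line and 22527090 and 21050377 in ESC. The 45S ribosomal precursor Rn45s took 0.792% and 0.911% of the counts in the line and 0.592% and 0.598% in ESC. Counts of the 2 libraries of a group varied 1.28 times as much as sampling alone gives in ESC and 3.22 times in the line (chi-square per degree of freedom). The 2 libraries of each group are described by the series as biological duplicates. The p-values below measure only the spread between duplicates, with information shared over all 14 libraries of the series and over genes. Levels are CPM (counts scaled to the total of each library times its TMM factor) given library by library, replicate 1 first. Differences are log2 fold changes of the line against ESC with their standard errors, called at an adjusted p under 0.05 by edgeR's quasi-likelihood test with Benjamini-Hochberg adjustment over all genes tested.

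Tsix, the antisense regulator of Xist named in the line's genotype label, was at a low level on both sides. It stood at 1.4 and 1.26 CPM in ESC and 0.785 and 1.06 CPM in the line, a difference of -0.53 ± 0.37 (adjusted p = 0.2) that was not called. The count therefore does not check the label, and without the strand of the libraries reads of Tsix and of Xist cannot be told apart where they overlap. Xist itself, the RNA that coats an inactive X chromosome, was at 30.2 and 31.6 CPM in ESC and 37.5 and 30.7 CPM in the line (adjusted p = 0.31), against 620.3 and 624 CPM in EpiSC. Both compared groups lay far under the EpiSC values.

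A difference between the inhibitor-free line and ESC was the rule and not the exception. Of 16247 genes tested, 11592 (71.3%) were called, 5903 (36.3%) higher and 5689 (35%) lower in the line. Most of these differences were small, and 3908 genes (24.1%) also differed at least 2-fold, 1717 higher (10.6%) and 2191 lower (13.5%). The median difference over all genes tested was 0.01, with the middle 50% of genes between -0.545 and 0.5. Against the same line with MM401, 3200 genes (19.7%) were called, 1689 (10.4%) higher and 1511 (9.3%) lower, but 44 (0.271%) also differed at least 2-fold, 17 higher (0.105%) and 27 lower (0.166%). The count of 3200 fell to 1991 without replicate 2 of the inhibitor-free line. The log2 counts of the 2 libraries of the line with MM401 correlated at 0.9936, above the 0.9899 and 0.991 of the groups treated at 100 µM. By chi-square per degree of freedom these 2 libraries varied 16.6 times as much as sampling alone gives, the most of any group. That measure takes in Rn45s, which took 0.548% of the counts in the first library and 2% in the second. Without the first of them 2532 genes were called, and without the second 2192. Against EpiSC, 12432 genes (76.5%) were called, 6256 (38.5%) higher and 6176 (38%) lower, and 5276 (32.5%) also differed at least 2-fold, 2455 higher (15.1%) and 2821 lower (17.4%). ESC against EpiSC gave 4523 genes (27.8%) at least 2-fold apart. The counts of the list members below are to be read against the 36.3% and 35% of all genes.

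The core pluripotency factors were all present in the inhibitor-free line, most of them at or above the ESC level. Of 14 core genes, 8 were higher and 5 lower in the line, with a median of 0.20. Pou5f1, the OCT4 gene, was at 1518 and 1550.1 CPM in ESC and 1735 and 1899 CPM in the line, a small difference of 0.24 ± 0.04 (adjusted p = 1.1e-07). Sox2 stood at 597 and 598 CPM in ESC and 916 and 850.1 CPM in the line (0.56 ± 0.04). Nanog, whose overexpression sustains self-renewal without LIF, was at 414 and 391 CPM in ESC and at 963 and 881 CPM in the line, 2.29-fold higher (log2 1.20 ± 0.04, adjusted p = 3.4e-27). These 3 genes were called higher, as were 36.3% of all genes tested. Dppa2, a chromatin factor of early embryos and germ cells (1.09 ± 0.06), and the Nodal co-receptor Tdgf1 (0.77 ± 0.04) were higher too. Lower were the TGF-beta family ligand Gdf3 (-1.05 ± 0.05), the let-7 regulator Lin28a (-0.90 ± 0.04), the chromatin protein Utf1 (-0.76 ± 0.05) and the zinc finger factor Sall4 (-0.37 ± 0.04). Rif1, which acts in replication timing and DNA repair, was not called (-0.11 ± 0.05, adjusted p = 0.059), but was called lower with RLE scaling (adjusted p = 0.0281).

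Naive markers were split, with most above ESC and a few well below. Of 22 naive genes, 15 were higher and 6 lower, with a median of 0.50, and 7 of the rises and 2 of the falls were at least 2-fold. Summed over the list, the level was 6352 and 6313 CPM in ESC, 9590 and 9596 CPM in the inhibitor-free line and 1053 and 1019 CPM in EpiSC. Klf4, a direct LIF and STAT3 target, showed the largest rise of the list: 182 and 180.0 CPM in ESC and 682 and 647 CPM in the line (1.87 ± 0.04, adjusted p = 7.1e-33). Prdm14, which represses FGF signalling and de novo methylation, was at 59.8 and 59.7 CPM in ESC and 197 and 191 CPM in the line (1.70 ± 0.05). Tet2, an enzyme that oxidises methylcytosine, was at 165 and 168 CPM in ESC and 483 and 442 CPM in the line (1.47 ± 0.04). The line was 3.67-fold, 3.25-fold and 2.77-fold above ESC for these 3 genes. Dppa5a, an RNA-binding protein of pluripotent cells (1.39 ± 0.04), and Tbx3, a T-box factor (1.16 ± 0.04), were at least 2-fold higher as well. Smaller rises were seen for Tfcp2l1 (0.41 ± 0.04) and for Esrrb (0.14 ± 0.03), 2 transcription factors of the naive network.

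The naive genes that went the other way include the classic ESC marker Zfp42 (Rex1). It was at 271 and 272 CPM in ESC and 99.8 and 108 CPM in the line, a fall of -1.39 ± 0.04 (adjusted p = 9e-28). Dppa3 (Stella), which protects maternal DNA methylation and marks germ cell precursors, was at 17.6 and 18.7 CPM in ESC and 6.93 and 8.38 CPM in the line (-1.25 ± 0.13). Zfp42 and Dppa3 were called lower, as were 35% of all genes tested. Tdh, the threonine dehydrogenase of mouse ESC (-0.44 ± 0.04), and Tfap2c (-0.41 ± 0.05) were lower by less. Klf5 was not called, with 234 and 235 CPM in ESC and 252 and 219 CPM in the line. Klf2 stood at 504 and 503 CPM in ESC and 457 and 437 CPM in the line, a difference of -0.17 ± 0.07 at an adjusted p of 0.044. That call was lost when any 1 of the 4 libraries was left out and with total counts as the scaling (adjusted p = 0.101). Zfp42 and Dppa3 were also lower in the line with MM401, at -1.70 ± 0.04 and -1.76 ± 0.14 against the same ESC libraries, and both were higher without the inhibitor than with it (0.31 ± 0.05 and 0.51 ± 0.16).

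**Figure D1:**
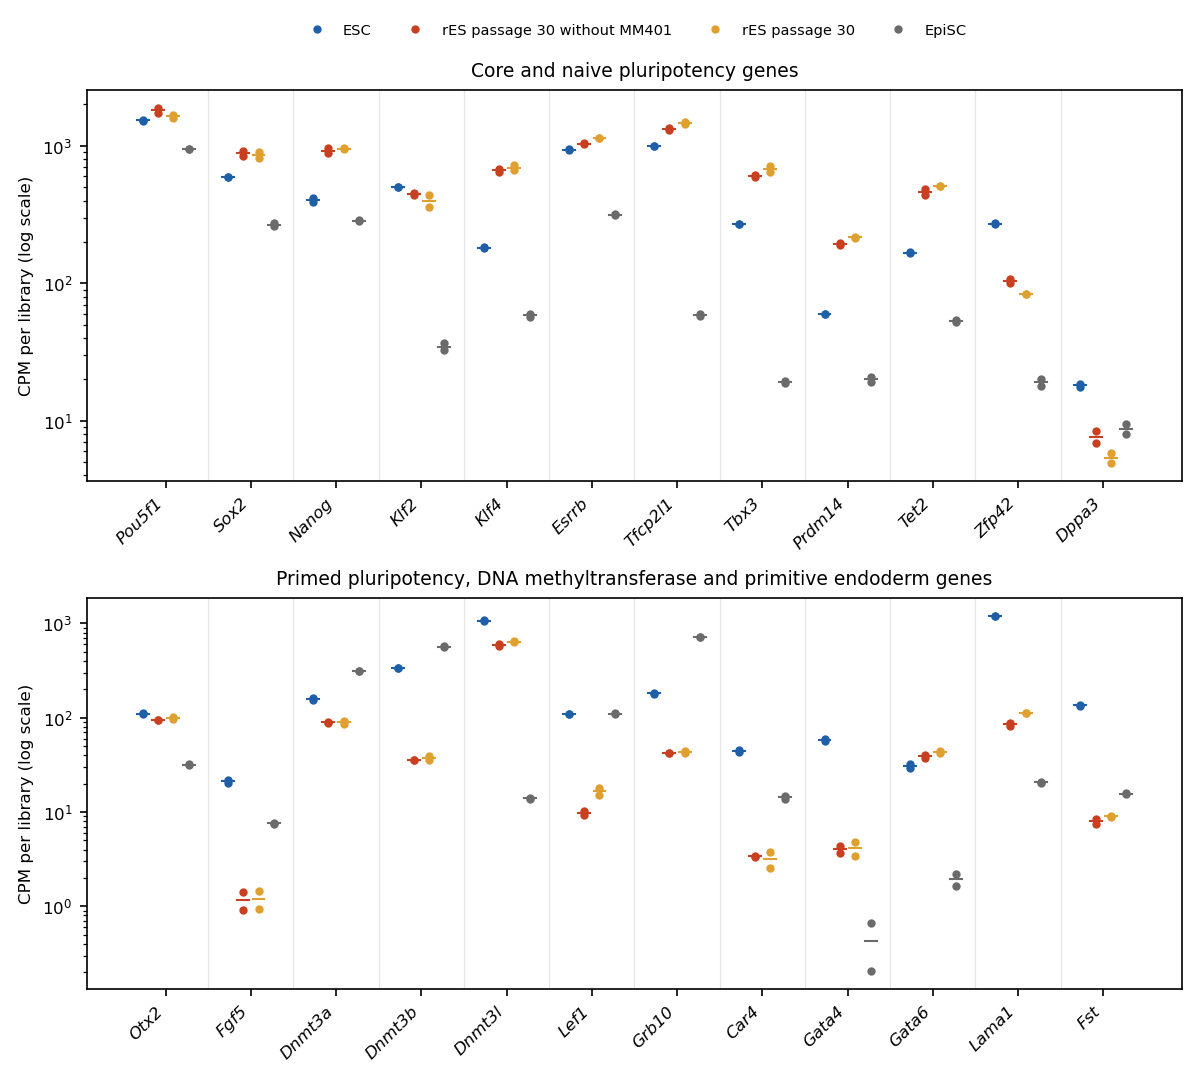
CPM (log axis) of core and naive genes (top) and of primed, DNA methyltransferase and primitive endoderm genes (bottom) in each library of 4 groups. Points are libraries, 2 in each group, and short lines are their mean. The inhibitor-free line sits above ESC for Klf4, Prdm14 and Tet2, below it for Zfp42 and Dppa3, and below it by more than 10-fold for Fgf5, Gata4 and Lama1.

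Primed epiblast genes were mostly lower in the inhibitor-free line than in ESC. Of 20 tested, 15 were lower, 12 of them at least 2-fold, and 2 were higher, with a median of -1.19. Fgf5, the epiblast FGF ligand, was at 22 and 20.2 CPM in ESC, 1.43 and 0.915 CPM in the line and 7.55 and 7.68 CPM in EpiSC. The line was therefore 17.9-fold lower than ESC (log2 -4.16 ± 0.22, adjusted p = 6.4e-20), and ESC lay above EpiSC for this gene. Lef1, a nuclear effector of Wnt, was at 110.3 and 111 CPM in ESC and 10.3 and 9.2 CPM in the line (-3.50 ± 0.08). The carbonic anhydrase Car4 (-3.71 ± 0.13) and the imprinted growth factor adaptor Grb10 (-2.10 ± 0.05) fell as well. Otx2, which directs the exit from the naive state, fell by little (-0.22 ± 0.05). Pou3f1 (adjusted p = 0.19), Zic5 (adjusted p = 0.67) and Nkx1-2 (adjusted p = 0.69) were not called. Going up were Sfrp2, a secreted Wnt modulator, from 11.8 and 10.5 CPM to 58.4 and 61.6 CPM (2.42 ± 0.08), and the FGF target Etv4 (0.91 ± 0.05).

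The enzymes that set DNA methylation moved in opposite directions. Dnmt3b, a de novo DNA methyltransferase, was at 336 and 334 CPM in ESC, 35.9 and 35.2 CPM in the line and 561 and 573 CPM in EpiSC. The line was 9.43-fold lower than ESC (-3.24 ± 0.05, adjusted p = 4.6e-38). Dnmt3a, its relative (-0.82 ± 0.05), the cofactor Dnmt3l (-0.86 ± 0.03) and the maintenance enzyme Dnmt1 (-0.29 ± 0.04) were also lower. Tet1, a methylcytosine oxidase, was at 411 and 406 CPM in ESC and 846 and 784 CPM in the line (1.00 ± 0.04), and Tet2 rose as given above. Tet3, the maintenance cofactor Uhrf1 and the cytidine deaminase Apobec1 were not called. In all, 4 of 9 tested genes were lower and 2 higher (median 0.01), and the higher count became 4 once the trend of each library with GC content was removed. DNA methylation itself was not measured in these libraries.

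Receptors and feedback genes of the LIF pathway were not uniformly higher, although both cultures held LIF. Of 14 genes, 3 were higher and 7 lower (median -0.22). Il6st, the gp130 signalling subunit (-0.89 ± 0.05), Stat3 (-0.65 ± 0.04) and its feedback inhibitor Socs3 (-0.66 ± 0.05) were lower in the line. Osmr, the oncostatin M receptor, was at 70.7 and 67.9 CPM in ESC and 11.8 and 10.8 CPM in the line (-2.62 ± 0.07). The kinases Pim1 (1.14 ± 0.04), Pim3 (0.53 ± 0.04) and Jak1 (0.35 ± 0.04) were higher. Lifr, the LIF receptor, was not called (0.11 ± 0.06, adjusted p = 0.069), nor were Jak2, Socs1 and Bcl3. With the trend of each library with transcript length removed, 5 genes of the list were higher, Lifr and Jak2 being added.

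Feedback genes of FGF and ERK signalling were lower, with a few exceptions. Of 21 genes, 14 were lower and 5 higher (median -0.60). Spry2, an inhibitor induced by ERK, was at 240.4 and 238 CPM in ESC and 88 and 86.3 CPM in the line (-1.46 ± 0.04). The nuclear ERK phosphatase Dusp4 (-1.06 ± 0.05) and the ETS factor Etv5 (-0.65 ± 0.04) fell too. Against these, Dusp9, a cytoplasmic ERK phosphatase encoded on the X chromosome, rose from 92.7 and 94.7 CPM in ESC to 525 and 543 CPM in the line, 5.7-fold (2.51 ± 0.04, adjusted p = 1.4e-36). The immediate early gene Egr1, at 46.6 and 47.9 CPM in ESC and 106 and 90.3 CPM in the line (1.05 ± 0.05), and the receptor gene Fgfr3 (0.62 ± 0.10) were higher. Fgf15 and Dusp5 were not called.

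Nodal pathway genes were more often above ESC than below it. Of 18 genes, 11 were higher and 5 lower (median 0.20). Lefty2 stood at 229 and 228 CPM in ESC and 535 and 532 CPM in the line (1.22 ± 0.04), and Lefty1 at 133 and 133 CPM in ESC and 264 and 249 CPM in the line (0.95 ± 0.04). Both encode Nodal inhibitors that are themselves Nodal targets, and the general inhibitory SMAD gene Smad7 was likewise higher (1.03 ± 0.04). Follistatin (Fst), an activin antagonist, was at 138 and 133 CPM in ESC and 7.39 and 8.48 CPM in the line (-4.09 ± 0.08). Cer1, a Nodal antagonist of the visceral endoderm, was at 7.69 and 7.1 CPM in ESC and had no count in either library of the line, at least 105-fold lower against a floor of 3 counts over the group. The cofactor Foxh1 (-1.86 ± 0.07) was lower, and the activin receptors Acvr2a and Acvr2b were not called.

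BMP genes went both ways. Of 16 genes, 6 were higher and 9 lower, and the median of -0.45 became -0.28 without replicate 2 of the line and -0.29 without replicate 2 of ESC. The ligand Bmp4 was at 61.4 and 57.1 CPM in ESC and 11.8 and 10.6 CPM in the line (-2.40 ± 0.09), while Bmp7 was at 9.0 and 9.47 CPM in ESC and 25.9 and 23.6 CPM in the line (1.42 ± 0.10). The BMP antagonists Nog (-2.72 ± 0.24) and Grem1 (-1.99 ± 0.09) were lower. The inhibitory SMAD gene Smad6 was at 5.88 and 6.81 CPM in ESC and 42.5 and 41.1 CPM in the line (2.72 ± 0.11). Of the Id genes, which encode dominant-negative partners of bHLH factors, Id4 rose (1.70 ± 0.08) and Id2 fell (-0.96 ± 0.08). Msx2 was not called.

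Wnt pathway genes were lower more often than higher, 15 against 5 of 26 (median -0.59). Porcn, which acylates Wnt ligands for secretion, was at 99.3 and 99 CPM in ESC and 42.9 and 41.1 CPM in the line (-1.24 ± 0.06). The receptors Fzd7 (-1.48 ± 0.05) and Fzd2 (-1.23 ± 0.09) were lower alongside Lef1. Higher were Tcf7 (0.98 ± 0.05), the secreted Wnt deacylase Notum (0.87 ± 0.07) and the secreted modulators Sfrp1 (0.86 ± 0.04) and Sfrp2. Ctnnb1, the beta-catenin gene, stood at 1279 and 1268 CPM in ESC and 1311 and 1308 CPM in the line and was not called, as were Wnt3a, Wnt7b, Tcf7l2, Nkd1 and Znrf3.

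Genes of the primitive endoderm were the list with the lowest median. Of 21 genes, 19 were tested, 18 of these were lower and 1 was higher, the median was -2.62, and each of the 18 falls was at least 2-fold. Afp and Fxyd3 were too low to be tested. Gata4 was at 56.1 and 58.8 CPM in ESC and 4.39 and 3.71 CPM in the line (-3.82 ± 0.13, adjusted p = 1.2e-25). Gata6, the earlier acting GATA factor, was the exception with 32.3 and 29.2 CPM in ESC and 40.5 and 37.8 CPM in the line (0.35 ± 0.09, adjusted p = 0.00054). Lama1, a laminin chain of the basement membrane, was at 1205 and 1207 CPM in ESC and 82.3 and 88.7 CPM in the line, 14.1-fold lower (-3.82 ± 0.04, adjusted p = 2.8e-42). The collagen IV genes Col4a1 (-2.62 ± 0.04) and Col4a2 (-2.63 ± 0.04) fell by similar amounts. The endocytic receptors of the visceral endoderm were lower by more: Lrp2 (megalin) went from 155 and 149.8 CPM to 4.11 and 4.1 CPM (-5.22 ± 0.09) and Cubn (cubilin) from 49.9 and 45.8 CPM to 0.508 and 0.482 CPM (-6.59 ± 0.22). Sox17, an endoderm factor chosen after its value was seen, was at 23.7 and 24.5 CPM in ESC and 1.25 and 1.93 CPM in the line (-3.93 ± 0.20). In bulk RNA, fewer cells of a type and less RNA per cell cannot be told apart.

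Fibroblast genes moved in the same direction, and the ESC label alone names feeder cells. Of 20 feeder fibroblast markers, 18 were lower in the line, 1 was higher and 1 was not called (median -1.65). Without replicate 2 of the line 2 were higher. The summed level of the list was 6745 and 6716 CPM in ESC, 1930 and 1989 CPM in the line, 2061 and 2065 CPM in the line with MM401, and 6279 and 6335 CPM in EpiSC, so the line held 0.291 of the ESC level. Col3a1, a fibrillar collagen, was at 551 and 551 CPM in ESC and 49 and 56.9 CPM in the line (-3.38 ± 0.05), and Col6a1 (-2.90 ± 0.05), Col6a2 (-3.27 ± 0.06) and Bgn (-2.20 ± 0.04) fell with it. Postn, a matricellular protein, was the 1 higher (1.04 ± 0.04), and Dcn was not called (0.09 ± 0.05). None of the 20 markers was at 0 in either group. The matrix genes of the primitive endoderm list are also made by fibroblasts, whereas Lrp2 and Cubn are receptors of absorptive epithelia. The part of feeder RNA in the falls of matrix and mesenchymal genes was not tested.

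Mesenchymal and epithelial genes both lay mostly below ESC. Of 12 mesenchymal genes, 11 were lower and 1, the repressor Zeb1 (0.32 ± 0.06), was higher (median -1.17). Fn1 (fibronectin) was at 6500.3 and 6473 CPM in ESC and 1721 and 1704 CPM in the line (-1.92 ± 0.03), and Vim (vimentin) at 1305 and 1305 CPM in ESC and 433 and 439.8 CPM in the line (-1.58 ± 0.03). These falls have the same direction as those of the feeder markers given above, whose part in them was not tested. Of 19 epithelial genes, 13 were lower and 3 higher (median -1.99). Esrp1, a splicing regulator of epithelial isoforms, was at 84.4 and 85.9 CPM in ESC, 1.06 and 1.06 CPM in the line and 42.8 and 42.4 CPM in EpiSC. It was 80-fold lower in the line than in ESC (-6.32 ± 0.14, adjusted p = 3.7e-32). The epithelial transcription factor Grhl2 (-2.93 ± 0.07), the keratin Krt18 (-3.44 ± 0.09) and the tight junction protein Cldn6 (-3.94 ± 0.11) fell as well. Its relative Grhl3 (1.03 ± 0.06), the membrane protease St14 (1.39 ± 0.05) and the junction scaffold Tjp1 (0.29 ± 0.04) rose, and Ovol1, Cldn3 and Cldn4 were not called.

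Called markers of other early lineages were mostly lower, with single exceptions. Of 12 trophoblast genes tested, 5 were lower and 1 higher, a median of -0.25 that became -0.50 without replicate 1 of the line. The 1 higher was Gata2, a GATA factor of trophoblast and blood, at 14.9 and 15.9 CPM in ESC, 195 and 194 CPM in the line and 2.57 and 2.64 CPM in EpiSC (3.66 ± 0.07, adjusted p = 3e-35). Krt7 (-2.58 ± 0.22), Tfap2a (-1.02 ± 0.17) and Eomes (-0.84 ± 0.10) were lower. Plac1 had 2 counts in the line against 47 in ESC, a ratio of 23.3 with a 95% counting interval from 6.1 to 198. Elf5, Hand1, Gata3, Ascl2, Plet1 and Esx1 were not called. With GC trends removed Elf5 was called too, which made 2 higher.

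Of 11 neuroectoderm genes, 7 were lower and 3 higher (median -0.93). The neuronal tubulin Tubb3 (-1.78 ± 0.06), the adhesion molecule Ncam1 (-0.93 ± 0.05), the eye and brain factor Pax6 (-2.67 ± 0.26) and the intermediate filament Nes (-0.50 ± 0.06) fell. Sox1, the early neural factor, was at 4.29 and 4.45 CPM in ESC, 10.2 and 8.62 CPM in the line and 97.2 and 93.5 CPM in EpiSC (1.11 ± 0.14). Lhx5 rose from 0.0904 and 0.0967 CPM to 1.29 and 1.11 CPM (3.64 ± 0.66), and the call of Sox3 (0.53 ± 0.18) was lost without replicate 2 of the line or replicate 1 of ESC. Map2 was not called. Of 10 mesoderm genes, 5 were lower and 2 higher (median -1.12), the latter 1 without any 1 of the 4 libraries because Tbx6 (0.96 ± 0.39) lost its call. Evx1 (-3.50 ± 0.27), the primitive streak gene T (-3.32 ± 0.36) and Foxc1 (-2.85 ± 0.24) were lower, and Gsc (goosecoid) was higher (2.44 ± 0.18). Mixl1, Kdr and Hand1 were not called.

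Genes of the integrated stress response, through which ATF4 raises amino acid supply when eIF2alpha is phosphorylated, were lower in the inhibitor-free line as a group. Of 29 genes, 24 were lower, 20 of them at least 2-fold, and 3 were higher (median -1.57). Many ATF4 targets carry a C/EBP-ATF composite element. Windows are shown for the 2 called members with the smallest adjusted p among those that hold its letters. RefSeq promoter windows of build GRCm38.p6, from 250 bases before to 50 bases after the start site, were searched for TGATGNAA on both strands, and the match is in capitals. The Trib3 window is chr2:152344011-152344310 on the minus strand, with the match starting at base 265 of the window, and the Chac1 window is chr2:119350992-119351291 on the plus strand, with the match starting at base 58. Both are printed 5′ to 3′ in the direction of transcription, so that the match appears as the reverse complement of the search letters.
Trib3: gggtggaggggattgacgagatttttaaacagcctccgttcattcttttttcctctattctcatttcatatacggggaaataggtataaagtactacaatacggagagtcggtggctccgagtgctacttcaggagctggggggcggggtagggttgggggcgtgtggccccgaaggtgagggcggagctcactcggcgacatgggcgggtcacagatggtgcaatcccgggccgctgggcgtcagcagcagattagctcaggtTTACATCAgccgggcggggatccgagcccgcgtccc
Chac1: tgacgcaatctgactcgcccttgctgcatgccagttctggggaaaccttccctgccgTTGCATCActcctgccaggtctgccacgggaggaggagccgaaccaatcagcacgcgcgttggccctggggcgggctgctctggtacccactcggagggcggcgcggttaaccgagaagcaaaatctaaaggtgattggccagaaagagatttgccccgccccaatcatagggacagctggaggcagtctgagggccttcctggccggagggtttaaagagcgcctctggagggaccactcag
The element was found in 8 of 30 windows of the list (26.7%), in 8 of the 25 members with a window, and in 3.97% of all 32851 windows. Asns, which was not called, is among the 8. A match is a description of the letters, and factor binding was not measured.

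Trib3, a pseudokinase that feeds back on ATF4, was at 151 and 148 CPM in ESC and 16.6 and 15.9 CPM in the line, 9.18-fold lower (-3.20 ± 0.06, adjusted p = 1.3e-34). Chac1, which degrades glutathione, was at 132 and 127 CPM in ESC and 10.2 and 11.8 CPM in the line (-3.56 ± 0.07, adjusted p = 1.6e-33). The amino acid transporters Slc7a5 (739.6 and 722 CPM in ESC and 168 and 166 CPM in the line, -2.13 ± 0.04) and Slc1a4 (-2.55 ± 0.05) fell with them. Atf4 itself was at 871 and 872 CPM in ESC and 361 and 368 CPM in the line (-1.26 ± 0.04). These 5 genes were called lower, as were 35% of all genes tested. Among the kinases that phosphorylate eIF2alpha, the amino acid sensor Eif2ak4 (GCN2) was higher (0.77 ± 0.06) and the ER sensor Eif2ak3 (PERK) slightly so (0.18 ± 0.06), as was Ppp1r15a, which directs the phosphatase (0.28 ± 0.05). Asparagine synthetase, Asns, with 766 and 765 CPM in ESC and 763 and 736 CPM in the line, and cystathionine gamma-lyase, Cth, with 173 and 168 CPM in ESC and 173 and 177 CPM in the line, were not called although both are ATF4 targets. EpiSC had 299.8 and 294 CPM of Atf4 and 23.8 and 23.4 CPM of Trib3, so that for both genes the 2 libraries of the line were nearer to EpiSC than to ESC. GMEM and Knockout DMEM are different basal media, and the part of the medium was not tested.

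ER chaperones, which answer to other branches of the unfolded protein response, did not fall as a group. Of 19 genes, 10 were higher and 5 lower (median 0.08). Hsp90b1 (GRP94) was at 662 and 673 CPM in ESC and 1086 and 1138 CPM in the line (0.74 ± 0.04), and Xbp1 (0.67 ± 0.05), Sdf2l1 (1.17 ± 0.07) and Pdia6 (0.41 ± 0.04) rose too. The ER-associated degradation genes Herpud1, from 110.4 and 110.2 CPM to 23 and 22.7 CPM (-2.27 ± 0.07), Sel1l (-0.60 ± 0.05) and Syvn1 (-0.47 ± 0.06) and the lectin chaperone Calr (-0.30 ± 0.03) were lower. Pdia3, Dnajb9, Dnajb11 and Manf were not called.

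Cholesterol synthesis genes were higher nearly throughout. Of 27 genes 26 were tested (Hmgcs1 is listed at 0 in every library), 22 of them were higher and 1 lower, with a median of 0.92, and 10 rises were at least 2-fold. Nsdhl, which removes methyl groups from sterols, was at 36.6 and 34.2 CPM in ESC and 117 and 115 CPM in the line (1.71 ± 0.05, adjusted p = 2.7e-27). Fdft1, squalene synthase, was at 57.3 and 56 CPM in ESC and 163 and 156 CPM in the line (1.50 ± 0.05), Msmo1 at 53.8 and 54.9 CPM in ESC and 145 and 144 CPM in the line (1.41 ± 0.05), and Dhcr7 at 28.8 and 28.6 CPM in ESC and 86.5 and 82.8 CPM in the line (1.56 ± 0.05). Each of these was called higher, as were 36.3% of all genes tested. Scap, which escorts SREBP out of the ER, was lower (-0.46 ± 0.05), and Srebf1, Lss and Ebp were not called. Ebp was called lower without replicate 1 of ESC, which made 2 lower. RefSeq promoter windows of the list were searched on both strands for the sterol response element TCACNCCAC. It was in 1 of 25 windows (4%), that of Hmgcs1, and in 1.24% of all 32851 windows.

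Glucose metabolism showed rises at its entry and at single isoforms. Of 25 genes, 15 were higher and 7 lower (median 0.25). The glucose transporters Slc2a1, at 504 and 509 CPM in ESC and 1087 and 1094 CPM in the line (1.11 ± 0.03), and Slc2a3, at 1406 and 1408 CPM in ESC and 2765 and 2724 CPM in the line (0.96 ± 0.03), were about 2-fold higher. Eno2 (1.74 ± 0.05) and Pdk3, an X-linked kinase that shuts pyruvate dehydrogenase (2.01 ± 0.06), rose more. Pfkp (-0.59 ± 0.03), Aldoa (-0.31 ± 0.03) and Pdk1 (-0.22 ± 0.04) were lower. The counts of Eno1 (-0.89 ± 0.15, lower), and of Gapdh and Pgam1, which were not called, are uncertain because near-identical copies in the genome share their reads, and Eno3 was not called.

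Cell cycle genes were higher in the line. Of 23 genes, 19 were higher and 2 lower (median 0.68). Top2a, which untangles replicated DNA, was at 526 and 529.6 CPM in ESC and 1264 and 1283 CPM in the line (1.27 ± 0.03, adjusted p = 2.2e-30), and Cdk1 at 167 and 169 CPM in ESC and 417 and 422 CPM in the line (1.32 ± 0.04). The mitotic cyclin Ccnb2 (1.26 ± 0.04) and the G1 cyclin Ccnd3 (0.90 ± 0.04) rose, whereas Ccnd2 fell (-0.94 ± 0.05) and Ccnd1 and Mcm2 were not called. The other lower gene, Mcm7 (-0.09 ± 0.04), lost its call without either ESC replicate and without replicate 1 of the line. CDK inhibitors were lower in 5 of 7 cases and higher in 1 (median -0.79). Cdkn1a (p21) was at 272 and 271 CPM in ESC and 149 and 147 CPM in the line (-0.88 ± 0.04), Cdkn2b (-0.93 ± 0.10), Cdkn2a (-0.64 ± 0.07) and Cdkn1c (-0.79 ± 0.11) fell, Cdkn1b (p27) rose (0.81 ± 0.06), and Cdkn2d was not called. No cell cycle measurement accompanies these libraries.

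**Figure D2:**
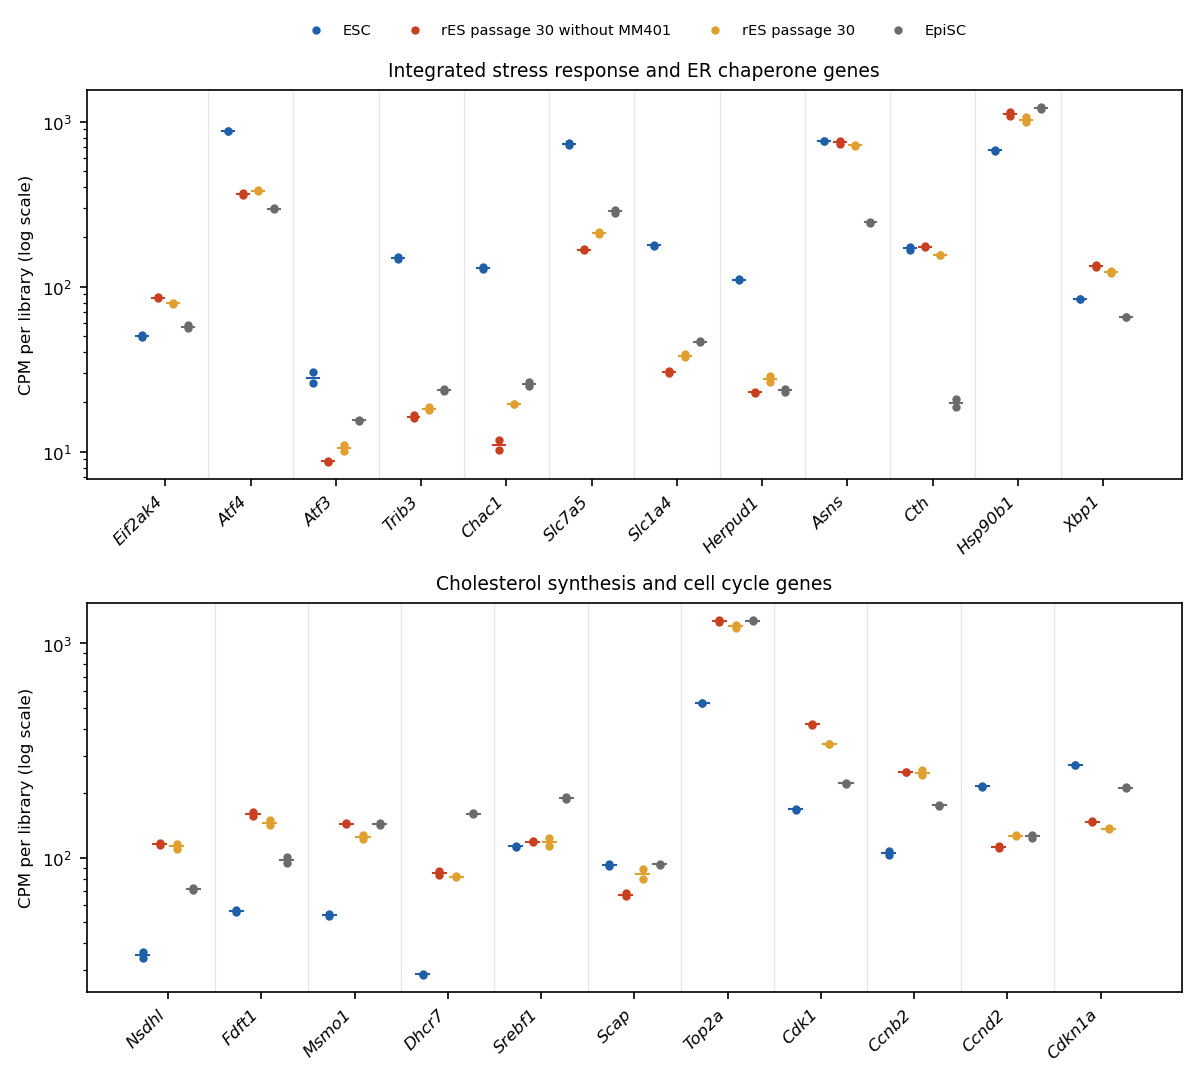
CPM (log axis) of integrated stress response and ER chaperone genes (top) and of cholesterol synthesis and cell cycle genes (bottom) in each library of 4 groups; points are libraries, 2 in each group, and short lines their mean. Trib3, Chac1 and Slc7a5 lie below ESC in the inhibitor-free line while Asns and Cth overlap or adjoin it, and Nsdhl, Fdft1, Dhcr7, Top2a and Cdk1 lie above.

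Germ line genes were raised in the inhibitor-free line. Of 22 genes 21 were tested, 15 of them were higher and 2 lower (median 1.86), and 12 rises were at least 2-fold. In ESC many germ line promoters are held silent by DNA methylation and by a non-canonical Polycomb complex whose MGA and MAX subunits bind the E-box CACGTG. The promoter windows of 2 members that rose are shown with that E-box in capitals: Mov10l1 at chr15:88982744-88983043 on the plus strand and Ddx4 at chr13:112652261-112652560 on the minus strand (RefSeq, GRCm38.p6, 5′ to 3′ in the direction of transcription). The match starts at base 5 of the Mov10l1 window and at base 222 of the Ddx4 window.
Mov10l1: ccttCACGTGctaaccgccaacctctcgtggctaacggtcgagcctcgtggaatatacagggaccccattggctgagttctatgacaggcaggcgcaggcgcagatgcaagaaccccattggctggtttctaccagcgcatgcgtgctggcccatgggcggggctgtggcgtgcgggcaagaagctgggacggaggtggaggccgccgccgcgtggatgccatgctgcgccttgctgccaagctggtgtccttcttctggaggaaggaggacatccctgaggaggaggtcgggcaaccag
Ddx4: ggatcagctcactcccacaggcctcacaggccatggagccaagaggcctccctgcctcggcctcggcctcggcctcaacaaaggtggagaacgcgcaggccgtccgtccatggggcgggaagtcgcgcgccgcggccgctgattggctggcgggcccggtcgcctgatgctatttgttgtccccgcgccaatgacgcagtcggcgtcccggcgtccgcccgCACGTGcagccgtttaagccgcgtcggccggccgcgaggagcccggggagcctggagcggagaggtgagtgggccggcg
The E-box CACGTG, which reads the same on both strands, was in 13 of 24 windows of the list (54.2%), in 10 of the 20 members with a window, and in 7.15% of all 32851 windows. Members with it include genes that fell or were not called, among them Hormad1, Sycp3 and Tdrd1.

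Rnf17, a Tudor domain protein of the piRNA pathway, was at 35.9 and 34.5 CPM in ESC and 245 and 228 CPM in the line, 6.7-fold higher (2.75 ± 0.05, adjusted p = 2.1e-34). Dazl, an RNA-binding protein needed for germ cells, was at 14.1 and 14 CPM in ESC and 82.9 and 75.7 CPM in the line (2.50 ± 0.08). Mov10l1, a piRNA helicase, was at 3.98 and 3.58 CPM in ESC and 24.1 and 26.7 CPM in the line (2.74 ± 0.13), and the oocyte factor Sohlh2 at 43.8 and 41.6 CPM in ESC and 152 and 158 CPM in the line (1.86 ± 0.05). Ddx4 (Vasa), chosen for its window after its value was seen, was at 4.75 and 6.33 CPM in ESC and 25.5 and 27.5 CPM in the line (2.26 ± 0.11). Stra8, which starts meiosis, was at 0.226 and 0.145 CPM in ESC and 14 and 13.2 CPM in the line (6.17 ± 0.30, adjusted p = 4.5e-21). Sycp3 (-0.44 ± 0.11) and Hormad1 (-0.83 ± 0.10) were lower, and Sycp2, Tex101, Tdrd1 and Tex19.1 were not called.

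Known repressors of germ line genes went both ways, with 4 of 12 higher, 6 lower and a median of -0.05. Mga was higher (338 and 357 CPM in ESC and 491 and 473 CPM in the line, 0.47 ± 0.04), as were the Polycomb ligase Rnf2 (1.14 ± 0.04), the H3K9 methyltransferase Setdb1 (0.43 ± 0.04) and Cbx3 (1.05 ± 0.13), whose reads are shared with near-identical copies. L3mbtl2 (-0.61 ± 0.04), Trim28 (-0.44 ± 0.03) and Ehmt1 (-0.49 ± 0.04) were lower. Ring1 (-0.49 ± 0.12) was called lower, and this call was lost without replicate 1 of the line. The remaining lower genes were Max and Pcgf6, chosen after their calls were seen. E2f6 and Ehmt2 were not called.

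Cleavage stage genes, only some of which mark a rare 2-cell-like state in ESC cultures, were raised from very low levels. Of 16 genes 10 were tested, and 9 of these were higher and none lower (median 3.26). Tcstv1 and Tcstv3 had no count in any library, and Zscan4c and Zscan4f were too low to be tested. Whether the line held more 2-cell-like cells was not tested. Summed over the tested genes, the level was 3.71 and 4.20 CPM in ESC and 71.4 and 72.5 CPM in the line. Obox6, an oocyte and embryo homeobox gene, made up much of this, at 0.949 and 0.87 CPM in ESC and 35.1 and 34.5 CPM in the line (5.25 ± 0.17). Pramel7 was at 0.678 and 0.773 CPM in ESC and 17.5 and 19.7 CPM in the line (4.68 ± 0.19), Pramel6 at 0.407 and 0.532 CPM in ESC and 3.97 and 4.58 CPM in the line (3.18 ± 0.30), and Zfp352 at 0.136 and 0.387 CPM in ESC and 3.14 and 3.18 CPM in the line (3.60 ± 0.41). Zscan4d, of the gene cluster that gives this state its usual marker, was at 0.904 and 0.58 CPM in ESC and 5.54 and 4.82 CPM in the line (2.79 ± 0.33, adjusted p = 1.1e-09). The Zscan4 genes are near-identical copies and their split is uncertain. Zscan4e had no count in ESC and 6 in the line, at least 2.02-fold higher against a floor of 3 counts for the ESC libraries together, and was not called (adjusted p = 0.051).

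Genes of the MLL family differed between the 2 passage 30 groups as well as from ESC. Against ESC, 5 of 14 genes of the MLL and SET1 complexes were higher and 8 lower (median -0.38). Kmt2a, the gene of the enzyme that MM401 targets, was at 162 and 162 CPM in ESC, 110.1 and 116 CPM in the inhibitor-free line and 166 and 165 CPM in the line with MM401. The inhibitor-free line was lower than ESC (-0.52 ± 0.05, adjusted p = 1.6e-12) and lower than the line with MM401 (-0.55 ± 0.05, adjusted p = 5.6e-11). The line with MM401 was not called against ESC (0.03 ± 0.05, adjusted p = 0.6). Setd1b (-1.49 ± 0.05), Kmt2d (-0.93 ± 0.04), Setd1a (-0.51 ± 0.04) and the shared subunit Hcfc1 (-0.47 ± 0.03) were lower than ESC. Each was also lower without the inhibitor than with it, at -0.66 ± 0.05, -0.48 ± 0.04, -0.22 ± 0.04 and -0.38 ± 0.03. Kmt2c was higher than ESC (0.28 ± 0.04) but lower than with MM401 (-0.50 ± 0.04). Of the other genes of these complexes, Wdr5 was higher, at 358 and 358 CPM in ESC and 558 and 587 CPM in the line (0.68 ± 0.03). Rbbp5 (0.33 ± 0.05) and Men1 (0.39 ± 0.05) were also higher than ESC, and Dpy30 was not called.

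Transcript length moved with this result and is given beside it. Of the 14 genes 7 were lower without the inhibitor than with it and none was higher, against 9.3% and 10.4% of all genes tested. Each of the 7 kept its call when any 1 of the 4 libraries of the 2 passage 30 groups was left out. Kmt2a has a transcript of 16.5 kb, Kmt2c of 15 kb, Kmt2d of 19.8 kb and Setd1b of 8.86 kb in GENCODE M21, and over the 10% of genes with the longest transcripts the median of the same difference was -0.15, against 0.10 over the 10% with the shortest. With each library's trend with transcript length removed, Kmt2a was lower by less (-0.29, adjusted p = 1.93e-05). The same held for Setd1b (-0.51), Kmt2c (-0.25), Kmt2d (-0.19), Hcfc1 (-0.24) and Setd1a (-0.12, adjusted p = 0.0282), and Kmt2b, chosen after its value was seen, was no longer called (-0.10, adjusted p = 0.0627). Against ESC, the medians of these 2 classes were -0.04 and 0.06. The part of length in the result was not tested further.

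Subunits of Polycomb repressive complex 2, which writes H3K27 methylation, were higher than ESC in 9 of 10 cases and lower in none (median 0.53). Suz12 was at 330.4 and 338 CPM in ESC and 609 and 577 CPM in the line (0.83 ± 0.04). Mtf2 (0.77 ± 0.04), Ezh1 (0.82 ± 0.06) and Rbbp7, which is X-linked (0.69 ± 0.04), rose as well, all by less than 2-fold. Jarid2 was not called.

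Fewer genes were called and at least 2-fold apart between the line without and the line with MM401 (44) than between the inhibitor-free line and ESC (3908). Whether the difference between the lines was small beside the distance to ESC was not tested over the called genes. For Kmt2a and Kmt2c, given above, it was not small. The 2 comparisons with ESC share the ESC libraries, so their values are given only side by side. Klf4 was 1.87 ± 0.04 without and 1.94 ± 0.04 with MM401, Dnmt3b -3.24 ± 0.05 and -3.16 ± 0.05, and Trib3 -3.20 ± 0.06 and -3.03 ± 0.06. Lef1 was lower without the inhibitor than with it (-0.76 ± 0.10, adjusted p = 4.1e-07), and so were Chac1 (-0.82 ± 0.09), Lama1 (-0.41 ± 0.04), Tet1 (-0.39 ± 0.04), Egr1 (-0.55 ± 0.05) and Zscan4d (-0.83 ± 0.23). Dppa5a (0.35 ± 0.04), Dusp9 (0.32 ± 0.04) and H19 (0.58 ± 0.04) were higher without it. For Lef1, Chac1, Lama1, Dppa5a and Dusp9 the inhibitor-free line was the farther from ESC, and for Tet1, Egr1, Zscan4d and H19 it was the nearer.

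**Figure D3:**
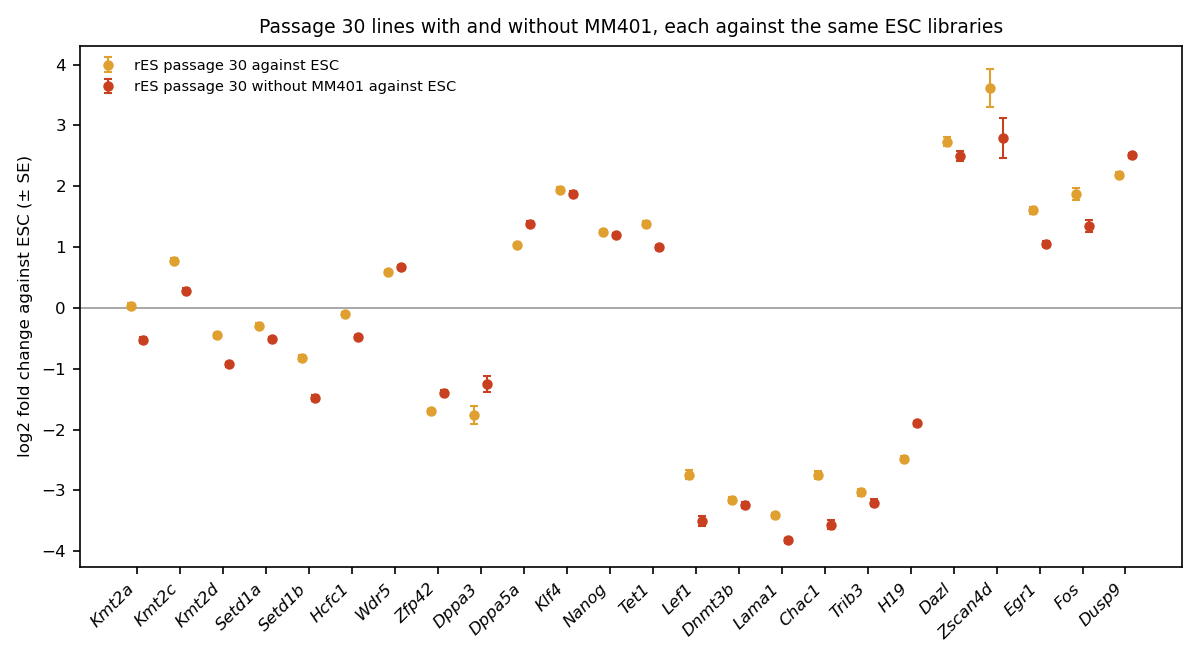
Log2 fold change against ESC, with its standard error, of the passage 30 line with MM401 (yellow) and without it (red) for genes named in the text, 2 libraries in each group. Both series use the same ESC libraries. The pairs lie close for Klf4, Nanog and Dnmt3b, and the red points lie lower for Kmt2a, Kmt2c, Kmt2d, Setd1b and Lef1.

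Imprinted genes were lower more often than higher, 18 against 4 of 27 tested (median -0.62). H19, a maternally expressed RNA, was at 785 and 794 CPM in ESC, 205 and 219 CPM in the line and 143 and 141 CPM in the line with MM401 (-1.90 ± 0.04 against ESC, adjusted p = 2.3e-34). Meg3 (-1.37 ± 0.04) and the paternally expressed Mest (-1.86 ± 0.06) were lower, as was Grb10. Higher were Slc38a4, an amino acid transporter, at 125 and 124 CPM in ESC and 440.1 and 407 CPM in the line (1.77 ± 0.05), Peg12 (1.94 ± 0.19), Zrsr1 (1.03 ± 0.06) and Plagl1 (0.79 ± 0.06). Zim1, Ndn, Phlda2, Kcnq1ot1 and Ascl2 were not called. Fibroblasts also express several of these genes, and the part of feeder RNA in the falls was not tested. Summed over the list, the line held 0.631 of the ESC level, beside 0.291 for the feeder markers. Allele-specific expression was not analysed here.

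**Figure D4:**
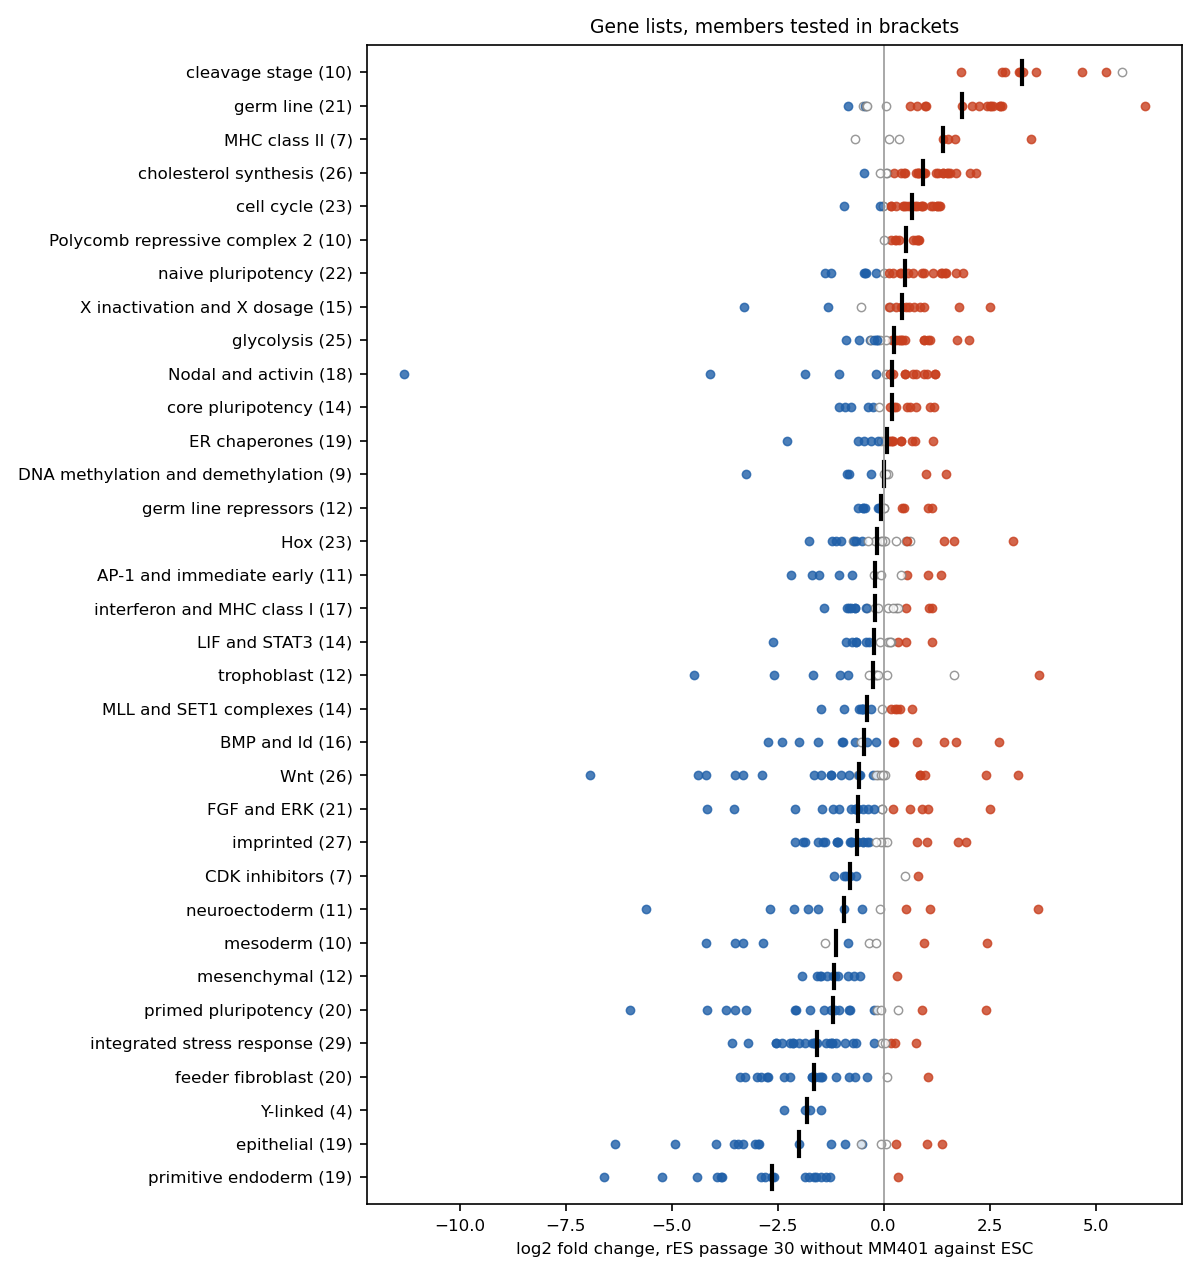
Log2 fold change of the inhibitor-free line against ESC for each tested member of the gene lists, ordered by median (black bar). Red points are called higher, blue points called lower and open points not called, and the number tested is in brackets. Cleavage stage and germ line genes lie to the right with medians of 3.26 and 1.86, primitive endoderm genes to the left with -2.62, and the point near -11 is the fitted value of Cer1, which has no count in the line.

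Several of the largest changes among genes at 10 CPM or more in either group were of genes with 3 or fewer counts on the other side. Tspo2, an erythroid membrane protein, had 2 counts in ESC and 535 in the line, a ratio of 270 with a 95% counting interval from 74.4 to 2240. Stra8, Obox6 and Pramel7 are among the 10 largest rises. AU015836, an X-linked gene, was at 16.5 and 14.3 CPM in ESC and 398 and 384 CPM in the line (4.66 ± 0.06, adjusted p = 4.6e-40). Tmem92 (4.65 ± 0.18) and the predicted genes Gm13889 (2.98 and 3.14 CPM in ESC and 98.6 and 98.1 CPM in the line), Gm11544 (5.22 ± 0.28) and Gm13119 (4.62 ± 0.24) are further large rises.

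Among the falls, Gadl1, a decarboxylase of amino acid metabolism, had 1758 counts in ESC and 1 in the line, a ratio of 1740 (95% counting interval 312 to 68800). Enpep, an aminopeptidase, had 619 counts against 1, and Gm4371 451 against 1. Gkn2 had 636 against 3 and Fcrls 574 against 3. The protease inhibitor Spink3 (-6.80 ± 0.44) and Itih2, of the inter-alpha-trypsin inhibitor family (-6.08 ± 0.33), stand with Cubn and Esrp1 among the 10. Rpl29 was at 56.4 and 52.8 CPM in ESC and 0.508 and 1.16 CPM in the line (-6.04 ± 0.15), and its value is uncertain because it has many near-identical copies. Each of the 20 genes lay on the same side of ESC in the line with MM401, by values from the same ESC libraries.

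The X chromosome stood apart from the autosomes. Of 608 X-linked genes tested, 342 (56.2%) were higher in the line and 137 (22.5%) lower, with a median of 0.51, while the medians of the 19 autosomes ran from -0.14 to 0.07. The same median was 0.54 in the line with MM401 and 0.52 in rES passage 6, against the same ESC libraries, and -0.06 without against with MM401. In the list of X inactivation and X dosage genes, 11 of 15 were higher and 2 lower (median 0.43), and 1 was lower without replicate 2 of the line or replicate 1 of ESC. Klhl13, a ubiquitin ligase adaptor, was at 91.9 and 90.9 CPM in ESC and 315 and 308 CPM in the line (1.77 ± 0.04). Hprt, a purine salvage enzyme, was at 141 and 139 CPM in ESC and 264 and 284 CPM in the line (0.97 ± 0.05), and the H3K4 demethylase gene Kdm5c at 381 and 376 CPM in ESC and 562 and 578 CPM in the line (0.59 ± 0.04). The non-coding gene Ftx was lower (-1.30 ± 0.24), and Jpx had 11 counts in ESC and 1 in the line. The number of X chromosomes in either line was not measured.

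Y-linked genes were lower. All 4 tested fell (median -1.80), from a sum of 27.9 and 29.3 CPM in ESC to 9.33 and 8.10 CPM in the line, with 12.2 and 11.9 CPM in EpiSC. Ddx3y was at 12 and 13.4 CPM in ESC and 4.99 and 4.1 CPM in the line (-1.48 ± 0.15), and Uty (-1.85 ± 0.29), Kdm5d (-2.35 ± 0.25) and Eif2s3y (-1.74 ± 0.18) behaved alike. The sum in the line was 0.304 of that in ESC, beside 0.291 for the feeder markers. In EpiSC the feeder markers summed to 6279 and 6335 CPM, near the 6745 and 6716 CPM of ESC. The Y-linked sum of EpiSC was nearer to that of the line than to that of ESC. The source of the Y-linked reads was not tested.

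**Figure D5:**
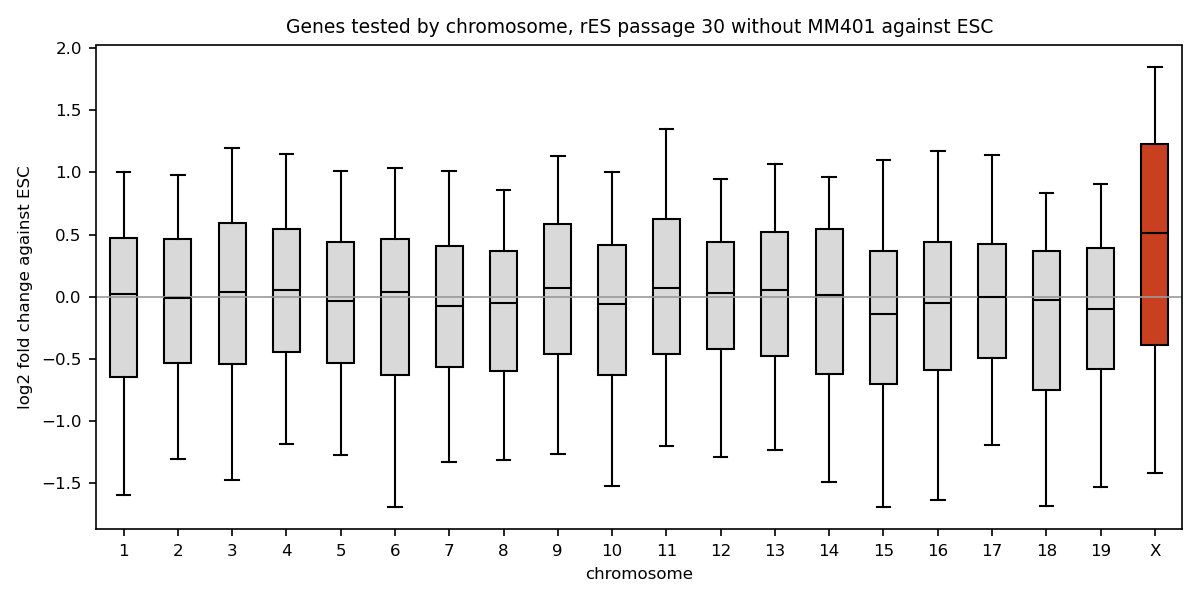
Log2 fold change of the inhibitor-free line against ESC for genes tested on each chromosome, X in red. Boxes span the middle 50% of genes, lines are medians and whiskers leave out the lowest and the highest 10% of genes. The X median of 0.51 lies above every autosome median.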

How the data were processed

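Per the labels' protocols, RNA was purified on RNeasy columns with DNase and sequenced single-end from TruSeq libraries. The authors deposited raw read counts for 24015 gene symbols, the only values used here. Build mm9 and the tools TopHat2, Subread and DESeq come from the submitters' processing notes. Their versions, the strand setting and the treatment of multi-mapping reads: not given in the sources used here. Columns that fit no sample's labels (2) were left out, and 27 gene names read as dates.

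Groups follow the sample labels. All 14 libraries (7 groups of 2) were fitted together in edgeR 4.0.16 (R 4.3.3) with TMM scaling and quasi-likelihood tests. edgeR's filterByExpr kept 16247 genes. CPM use TMM-scaled library sizes, and a standard error is the log2 fold change divided by the square root of its F statistic. Genes were called at an adjusted p under 0.05 (Benjamini-Hochberg over all genes tested). The code was tested on simulated data. For genes with 3 or fewer counts in a group, a ratio with its exact 95% interval, or a bound against a floor of 3 counts, is given. These cover counting error only.

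The comparison and the 34 gene lists were chosen with earlier results of these data known. Named genes are a fixed panel, the 10 largest called rises and falls at 10 CPM or more in either group, and in each list up to 4 called members in each direction with the smallest adjusted p and every member not called. Genes named outside this rule are marked as such, and a few that the rule names are not reported here. A same-numbered replicate shared no deviation with its counterpart (r = -0.02), so replicate numbers were not treated as pairs. Alternatives were RLE scaling, total counts, no filter, a replicate block, the 4 compared libraries alone, a 2-fold minimum, leaving out each library, and DESeq2 1.42.0. Promoter windows are from RefSeq GRCm38.p6, and transcript lengths and GC shares were read from GENCODE M21 (98.3% of symbols matched).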

Additional observations from a re-analysis of the deposited data

How the results depend on the processing

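The count of 11592 genes called against ESC stayed within 1.5 times of itself under every alternative except a 2-fold minimum, which left 3908 (1717 higher, 2191 lower), 5276 against EpiSC (2455 higher, 2821 lower) and 44 against the line with MM401 (17 higher, 27 lower). It was 11588 with RLE scaling, 11575 with total counts, 11613 without a filter, 11576 with only the 4 libraries compared and 11203 with DESeq2. Leaving out 1 library gave 10626 to 10833 genes against ESC (5375 to 5545 higher, 5251 to 5325 lower) and 11595 to 11707 against EpiSC (5815 to 5936 higher, 5771 to 5781 lower). Against the line with MM401 it gave 1991 to 2751 in place of 3200 (1008 to 1514 higher, 983 to 1237 lower), the lowest without replicate 2 of the inhibitor-free line, and 1125 were higher without replicate 2 of the line with MM401. A replicate block gave 11552, 12406 and 3180 genes. Of the named genes, the block ended the call of Ciita (adjusted p = 0.0514) and called Rif1 lower (adjusted p = 0.015), and it changed no other call. Total counts lowered the share of called genes that were higher than EpiSC from 50.3% to 41.6%, with a shift of the median of all genes from -0.01 to -0.15. Against the line with MM401 that share was 52.8% with TMM, 45.8% with RLE and 56.2% with total counts. Alternatives chosen after seeing the data left out the 4 deeper libraries (11853), left out Rn45s (11593), removed each library's GC trend (11517) or removed its trend with transcript length (11567). With the GC trend removed Dnajb9 (-0.18), Ccnd1 (0.09), Mcm2 (0.09) and Dcn (-0.22), not called before, were called on the other side of 0, and Mcm7 (0.00, called lower before) was not called. With the length trend removed the same happened to Kcnq1ot1, not called before and then called higher (0.84). The cause was not tested. No named gene that was called against ESC changed sign with RLE scaling, total counts, DESeq2 or any library left out, while several uncalled genes near 0 did, among them Uhrf1, Jarid2 and Ndn with RLE scaling (each -0.02). Among list counts, DESeq2 gave 1 mesoderm gene higher in place of 2, the 4 compared libraries alone gave 1 X dosage gene lower in place of 2, leaving out the deeper libraries gave 2 trophoblast genes higher in place of 1, and removing the length trend gave 2 cholesterol genes lower and 2 feeder markers higher in place of 1 each. Removing the GC trend lowered the median of the core pluripotency list from 0.20 to 0.09 and of the X dosage list from 0.43 to 0.28, and without a filter the median of the DNA methylation list was -0.15. With 2 libraries in a group, differences resting on few counts, as for Jpx, Ciita, Tbx6 and the Hox genes, are the least certain.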

Other observations

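MHC class II genes, usually those of antigen-presenting cells, were higher in the inhibitor-free line than in ESC where they were called with TMM scaling. Of 7 genes, 4 were higher and none lower (median 1.40). H2-Ab1 was at 1.4 and 1.64 CPM in ESC, 15.2 and 18.5 CPM in the line and 2.53 and 2.06 CPM in EpiSC (3.47 ± 0.19, adjusted p = 4.7e-19). H2-Eb1 was at 16.7 and 16.8 CPM in ESC and 51.9 and 56.3 CPM in the line (1.69 ± 0.08), and the invariant chain gene Cd74 was higher from a low level (1.51 ± 0.29). Ciita, the class II transactivator, stood at 0.497 and 0.0967 CPM in ESC and 0.693 and 0.915 CPM in the line. Its call (adjusted p = 0.047) was lost without replicate 2 of ESC (0.69, adjusted p = 0.417), which also brought the median of the list to 0.69, and without either replicate of the line. With RLE scaling 3 were higher and 1 lower, since Ciita lost its call (adjusted p = 0.0513) and H2-Aa, not called otherwise (adjusted p = 0.0588), was called lower (-0.69, adjusted p = 0.0498). H2-DMa and H2-DMb1 were not called. Of 17 interferon and MHC class I genes, 3 were higher and 7 lower, a median of -0.21 that became -0.34 without replicate 2 of the line. The class I light chain B2m (-0.77 ± 0.05), H2-K1 (-0.82 ± 0.06), Bst2 (-0.85 ± 0.06) and the peptide transporter Tap1 (-1.41 ± 0.14) were lower. Oas1a (1.08 ± 0.14), Stat2 (0.52 ± 0.07) and Ifit1 (1.15 ± 0.26) were higher. Irf1, Irf7, Isg15, Ifit2, Ifit3 and Psmb9 were not called.

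AP-1 and immediate early genes were split. Of 11 genes, 3 were higher and 5 lower, and their median of -0.21 became -0.32 without replicate 1 of the line. Fos was at 7.23 and 7.39 CPM in ESC, 20.4 and 16.9 CPM in the line and 295 and 293 CPM in EpiSC (1.35 ± 0.10). Fosl2 was at 118 and 116 CPM in ESC and 25.3 and 26.8 CPM in the line (-2.17 ± 0.06), and Jun (-1.04 ± 0.06) and Fosl1 (-1.53 ± 0.19) were lower with it. Jund was called higher (0.56 ± 0.15), and the call was lost without replicate 2 of the line or replicate 1 of ESC. Fosb, Egr2 and Ier2 were not called. Of 23 Hox genes tested, 4 were higher and 7 lower (median -0.16), and 4 were lower without replicate 2 of ESC. Their summed level was 66.3 and 65.9 CPM in ESC and 63.6 and 57.9 CPM in the line. Hoxd9 was at 1.94 and 1.88 CPM in ESC and 6.33 and 5.78 CPM in the line (1.66 ± 0.20), and Hoxc8 at 6.1 and 5.8 CPM in ESC and 3.33 and 2.65 CPM in the line (-0.99 ± 0.18).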
